A study of Mus musculus with 4 samples.

Results

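The mouse genes Cyb5a (gene ID 109672) and Cyb5b (gene ID 66427), which encode the cytochromes b5, were followed by name through liver RNA sequencing. They are 2 of 943 genes listed in 2 deposited tables, 722 genes for the fasted state and 284 for the refed state, and both stand among the 63 genes listed in both. The libraries number 4, with 1 per group. The control libraries carry the label WT with shNC, 1 from fasted and 1 from refed mice. The targeted libraries carry the label L_Cyb5b with shCyb5a, where L stands for liver in the series' description, again 1 fasted and 1 refed. The labels point to a hairpin against Cyb5a and do not say what was done to Cyb5b. The sources used here give no allele, promoter or Cre line for Cyb5b, no sequence or vector for the hairpin, no number, age or sex of the mice, and no length of fasting or refeeding. No group has a replicate, so every difference compares 2 libraries, and ranges in parentheses are 95% counting intervals that say nothing about the spread between mice.

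Cytochromes b5 are small haem proteins anchored by a tail in a membrane facing the cytosol. They take electrons from NADH through cytochrome b5 reductase, or from NADPH through P450 reductase, and hand them to enzymes that oxidise lipids and drugs. CYB5A sits mainly in the endoplasmic reticulum, where it serves fatty acid desaturases, sterol enzymes such as the C4 methyl oxidase and several P450 enzymes. CYB5B is known mainly from the outer mitochondrial membrane. The series' title concerns the part that both play in removing methyl groups from carbon 4 of sterols.

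The tables give each gene as TPM, which scales reads per transcript length to 1 fixed sum over all genes of a library, and as FPKM, which divides reads by transcript length and by the reads of the library. Whole reads for both genes were recovered from the authors' deposited log2 ratios and p-values. Cyb5a had 11199 reads in the control fasted, 9061 in the control refed, 1215 in the targeted fasted and 1187 in the targeted refed library. Cyb5b had 3541, 9180, 1180 and 2603 reads in the same order. The library totals implied by the p-values were close, at 1.0147, 1.01865 and 1.03149 times the control fasted total for the targeted fasted, control refed and targeted refed library. The totals themselves were estimated at about 14200000 to 14700000 reads. None of the 906 different 50-base stretches of the coding Cyb5a transcripts, and none of the 4267 of Cyb5b, occurs in a transcript of another gene in GENCODE M21. Reads of that length from these coding transcripts thus match no other annotated gene exactly. Copies that differ by single bases were not searched for.

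Cyb5a was the more abundant cytochrome b5 in all 4 libraries, and its level separated by genotype. Cyb5a stood at 1686 TPM in the control fasted, 1274 TPM in the control refed, 207 TPM in the targeted fasted and 166 TPM in the targeted refed library. Both control libraries were far above both targeted libraries, and within each genotype the refed library was the lower by TPM and FPKM, which size factors from the listed genes turned round in the control libraries. Among the 943 listed genes, 9 had a higher TPM than Cyb5a in the control fasted and 11 in the control refed library, against 35 and 42 in the targeted ones. As a part of all transcripts, Cyb5a made up 0.169% in the control fasted and 0.0207% in the targeted fasted library. In the targeted fasted library 12.3% of the control level remained (11.58% to 13.05%), a level 8.13-fold lower (7.66 to 8.64). In the refed state 13.04% remained (12.3% to 13.9%), a level 7.67-fold lower (7.22 to 8.15).

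Cyb5b was the less abundant gene and had a different order of levels. Cyb5b stood at 72.4 TPM in the control fasted, 174 TPM in the control refed, 27.4 TPM in the targeted fasted and 49.5 TPM in the targeted refed library. Both targeted libraries were again below both control libraries, but in each genotype the refed library was the higher. In the fasted state 37.9% of the control level remained (35.4% to 40.5%), and in the refed state 28.5% (27.3% to 29.8%). The part left was thus larger for Cyb5b than for Cyb5a in each state. In this bulk tissue, fewer cells carrying a transcript and less of it per cell cannot be told apart. The tables give 1 value per gene, so where along the transcripts the remaining reads lie was not analysed here.

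**Figure D1:**
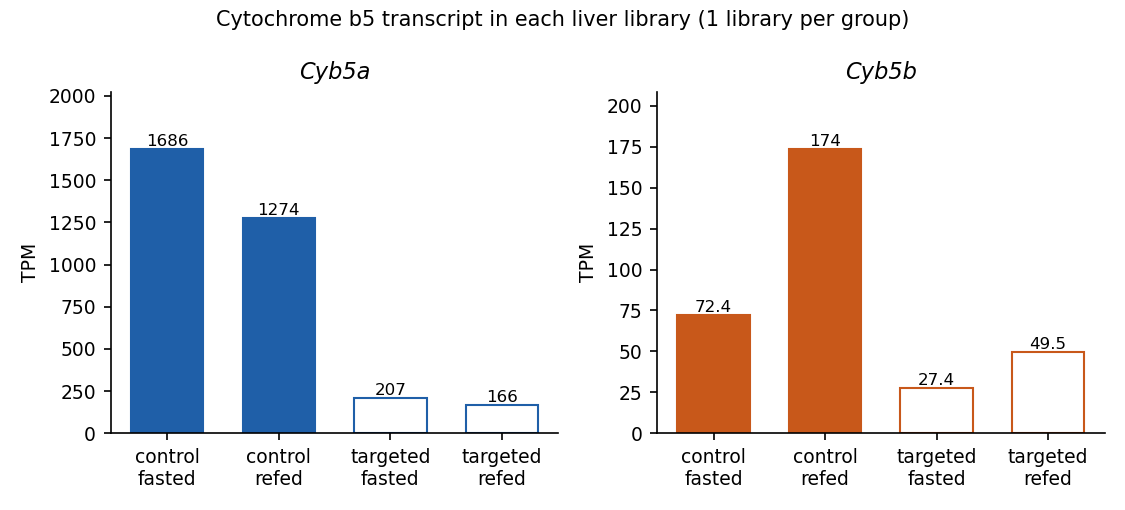
Level of Cyb5a (left) and Cyb5b (right) in TPM in each library, 1 bar per library and 1 library per group, filled for control and open for targeted. Cyb5a stands at 1686 and 1274 TPM in the control and at 207 and 166 TPM in the targeted libraries, while Cyb5b is higher in the refed library of each genotype.

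The sequence before the Cyb5b gene is shown because its level was the higher in the refed library of each genotype. The 229 bases lie at chr8:107150411-107150639 on the plus strand of GRCm38.p6, from RefSeq's promoter table, and end just before the gene start annotated in GENCODE M21. Capitals mark the letters ATTGG, the reverse complement of the CCAAT box that the factor NF-Y is known to bind.
Cyb5b promoter: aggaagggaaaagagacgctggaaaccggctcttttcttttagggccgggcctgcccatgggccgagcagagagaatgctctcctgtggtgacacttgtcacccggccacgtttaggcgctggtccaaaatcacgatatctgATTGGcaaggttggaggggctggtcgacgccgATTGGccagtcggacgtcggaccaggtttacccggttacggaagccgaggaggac

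CCAAT, searched on both strands, was found 2 times in this window, 108 and 76 bases before the RefSeq start. It occurs at least once in 32.7% of 27025 windows of the same length, 1 for each gene of the table, and at least 2 times in 9.33%. The E-box CACGTG, the GC box GGGCGG and the letters TCACNCC, part of the sterol regulatory element, were not found in the window on either strand, and occur in 5.32%, 29.7% and 12.2% of the windows. The matches of CCAAT overlap none of the other motifs. They are matches of letters and not shown binding sites.

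On FPKM the fasted differences between the genotypes were larger. Cyb5a FPKM was 9.38-fold lower in the targeted fasted library (8.84 to 9.96), and Cyb5b FPKM was 3.05-fold lower (2.85 to 3.26). In the refed state the scales were close, with 7.81-fold (7.35 to 8.30) for Cyb5a and 3.58-fold (3.42 to 3.74) for Cyb5b on FPKM. The factor from FPKM to TPM was 1.504 for the targeted fasted library, while it was 1.30 for its control and 1.23 and 1.25 for the refed control and refed targeted library. By the definitions above, this factor is set by the FPKM summed over all genes of a library, and why that sum differs was not tested. In the authors' deposited table the log2 ratio of targeted over control was -3.20 for Cyb5a and -1.59 for Cyb5b in the fasted state, and -2.93 and -1.82 in the refed state.

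The tables list genes by these ratios, so their place in the tables is a description. In the fasted table, 44.2% of the 670 genes at 1 TPM or more in either library were at least 2-fold lower by TPM, and 4 genes had a lower ratio than Cyb5a while 107 had a lower ratio than Cyb5b. In the refed table, 21.4% of 252 genes were at least 2-fold lower, and 4 genes lay below Cyb5a and 12 below Cyb5b. Of the 607 other listed genes with at least 1 TPM in every library, 5 were at least 2-fold lower in the targeted library in both states, namely Elovl6, Gatad1, Scara5, Sdhaf3 and Aacs, which were named after their values were seen. Both cytochrome b5 genes also appear in the authors' shorter second sheets for each state.

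**Figure D2:**
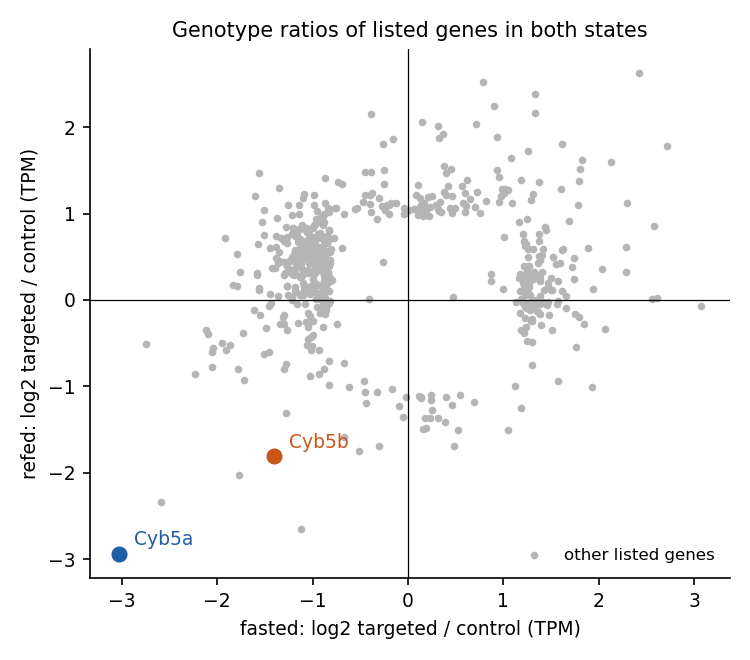
Genotype ratio of each listed gene with at least 1 TPM in all 4 libraries, as the log2 of targeted over control TPM in the fasted (horizontal axis) and in the refed state (vertical axis). Cyb5a at -3.02 and -2.94 and Cyb5b at -1.40 and -1.81 lie among the few points that are low on both axes, and the tables hold only genes past the authors' threshold in at least 1 state.

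By TPM the 2 genes differed in opposite directions between the refed and the fasted control library. Cyb5b had a 2.40-fold higher level after refeeding (2.31 to 2.49), on FPKM 2.55-fold higher (2.45 to 2.65) and with size factors 4.09-fold higher. Among 821 listed genes at 1 TPM or more in either control library, 17.2% were at least 2-fold higher on refeeding and 113 had a higher ratio than Cyb5b. Cyb5a stood in the refed control library at 75.5% of its fasted TPM (73.5% to 77.7%), a log2 ratio of -0.40, which turned to 0.36 when TPM was scaled by those size factors. Of the 821 listed genes 45.8% were at least 2-fold lower and the median log2 ratio was -0.86. Cyb5a was thus lower on refeeding by less than the median listed gene. Its log2 ratio was -0.32 by FPKM and -0.33 by recovered reads over library totals, and only the size factors changed its sign. Both the median and the size factors rest on genes listed for genotype ratios against these same control libraries. Neither is thus a neutral reference. The authors' deposited table gives log2 ratios of 1.37 for Cyb5b and -0.31 for Cyb5a for refed over fasted control liver.

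In the targeted libraries the difference for Cyb5b had the same direction. Cyb5b was 1.80-fold higher by TPM in the refed targeted library (1.68 to 1.94) and 2.17-fold higher by FPKM (2.03 to 2.33). Of 810 listed genes, 22.3% were at least 2-fold higher and 18.9% at least 2-fold lower by TPM on refeeding in the targeted libraries, and the median listed gene had a log2 ratio of 0.26. The value for Cyb5a rested on the scale. Cyb5a stood in the refed targeted library at 80.1% of its fasted TPM (73.9% to 86.9%), but its FPKM ratio of 0.964 had an interval that includes equality (0.889 to 1.05). Its 1215 and 1187 reads show the same, and a difference in Cyb5a between the fed states of the targeted liver was not detectable on FPKM at this depth.

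**Figure D3:**
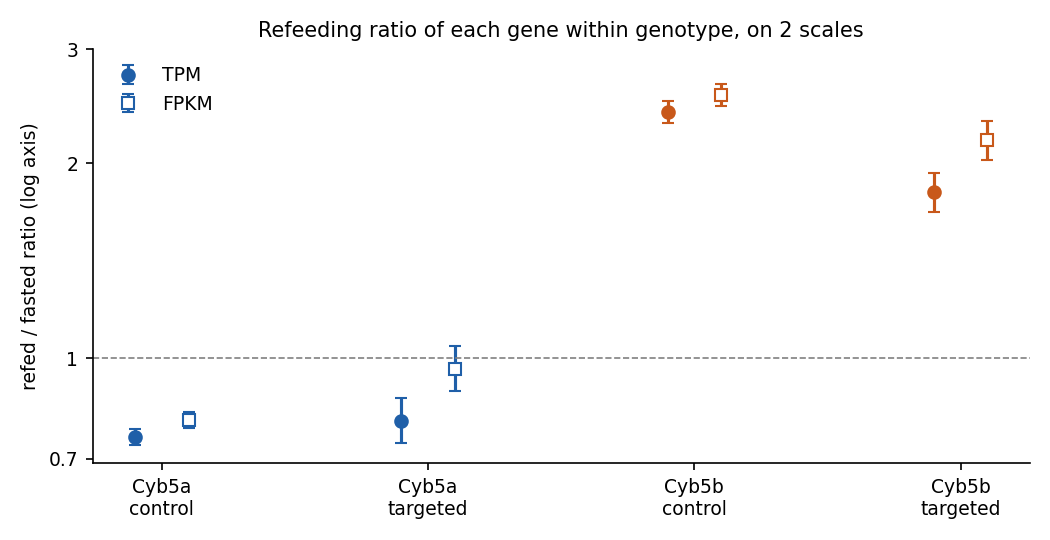
Ratio of refed over fasted level of each gene within each genotype, on a log axis, by TPM (filled circles) and FPKM (open squares), with bars for 95% counting intervals and a dashed line at equality. Cyb5b lies between 1.80 and 2.55 in all 4 cases, and Cyb5a between 0.755 and 0.964, with the FPKM interval of the targeted libraries crossing 1.

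Cyb5b was lower in the targeted library by a larger factor in the refed state. For Cyb5a the difference between the states had the same sign by TPM and FPKM, and changed sign only with size factors. For Cyb5b the log2 ratio of targeted over control was -1.40 in the fasted and -1.81 in the refed state by TPM, a difference of -0.41 (-0.52 to -0.30). By FPKM the same difference was -0.23 (-0.35 to -0.12). For Cyb5a the difference between the states was 0.09 by TPM, with an interval of -0.04 to 0.21 that includes 0, and 0.26 by FPKM (0.14 to 0.39). With size factors it was -0.93 for Cyb5a and -1.42 for Cyb5b, but these factors rest on genes listed for their genotype ratios in these same libraries. With 1 library per group these differences have no residual degrees of freedom and were not tested.

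The summed transcript of both genes shows how much cytochrome b5 message each library held. The sum was 1758 TPM in the control fasted, 1447 TPM in the control refed, 234.7 TPM in the targeted fasted and 216 TPM in the targeted refed library. The targeted libraries thus kept 13.4% of the control sum in the fasted state (12.7% to 14.1%) and 14.9% in the refed state (14.2% to 15.6%), or 11.6% and 14.6% by FPKM. Most of the difference in the sum was Cyb5a, which made up 97.0% of it in the fasted and 89.9% in the refed state. In the control libraries the higher Cyb5b on refeeding, 101 TPM more, was smaller than the lower Cyb5a, with a difference of -412 TPM, and the sum in the refed library was 82.3% of the fasted one (80.2% to 84.4%), or 87.4% by FPKM and 140.3% with size factors. In the targeted libraries the refed sum was 91.9% of the fasted one by TPM (85.9% to 98.2%) but 110.5% by FPKM and 77.7% with size factors, so the scale sets the direction there.

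The share of Cyb5b in that sum does not depend on TPM or FPKM, since both genes of a library are scaled alike. By TPM, Cyb5b made up 4.12% of the summed transcript in the control fasted library (3.97% to 4.27%). It made up 12.003% in the control refed library (11.7% to 12.3%). In the targeted fasted library it made up 11.7% (10.9% to 12.5%), and in the targeted refed library 23.0% (21.8% to 24.2%). The control fasted library was the lowest and the targeted refed library the highest, and the intervals of the control refed and targeted fasted libraries overlap. Put as a ratio of TPM, Cyb5a was 23.3 times Cyb5b in the control fasted and 7.33 times in the control refed library. It was 7.56 times Cyb5b in the targeted fasted and 3.36 times in the targeted refed library. These shares and ratios rest on the lengths behind the authors' values, which are not given.

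The balance of Cyb5b to Cyb5a was 3.18-fold higher on refeeding in control liver (3.03 to 3.33) and 2.25-fold higher in targeted liver (2.03 to 2.503). It was 3.08-fold higher in the targeted than in the control library when fasted (2.82 to 3.36) and 2.18-fold higher when refed (2.03 to 2.35). By FPKM these folds were 3.18, 2.25, 3.08 and 2.18. The 2 genes must be compared per length. In raw reads Cyb5b made up 24.0%, 50.3%, 49.3% and 68.7% of the pair in the control fasted, control refed, targeted fasted and targeted refed library. The length behind the authors' FPKM was 7.34 to 7.43 times as great for Cyb5b as for Cyb5a. The coding transcripts in GENCODE M21 have 4316 bases for Cyb5b, with 1 form, and 833 and 676 bases for Cyb5a, with 2. When reads were divided by the longest coding transcript, the shares of Cyb5b were 5.75%, 16.4%, 15.8% and 29.7% in the same order of libraries, which keeps the order and raises every share.

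**Figure D4:**
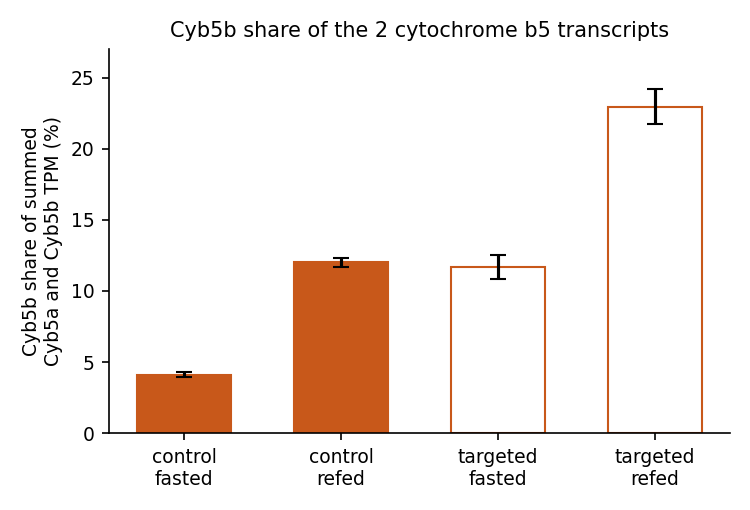
Share of Cyb5b in the summed TPM of Cyb5a and Cyb5b in each library, in percent, with bars for 95% counting intervals, filled for control and open for targeted. The share is 4.12% in the control fasted library, 12.003% and 11.7% in the control refed and targeted fasted libraries, and 23.0% in the targeted refed library.

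The partners of cytochrome b5 were looked up in a list of 56 genes, with second names counted once, of which 5 are in either table. For comparison, 4.25% of the 21900 protein-coding genes in RefSeq are listed, whether or not liver expresses them, and counts as small as these are not read as more or fewer than that share. None of the 6 reductase genes, among them Cyb5r3 and Por, is listed in either state. None of the 9 genes of sterol enzymes around C4 demethylation, such as Msmo1, Sc5d and Cyp51, is listed, nor any of the 12 desaturase and hydroxylase genes of lipids such as Scd1, Fads1 and Fads2. None of the 8 genes for other proteins with a cytochrome b5 domain is listed. Their values were not analysed here, and absence from a table of genes past a threshold does not show that their levels were equal.

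Of 9 genes for other electron acceptors, 4 are listed, all of them P450 genes and all higher in the targeted fasted library, in a table where 29.4% of genes were at least 2-fold higher by TPM. Cyp17a1, a steroid hydroxylase whose lyase step cytochrome b5 is known to stimulate, had 22.9 TPM in control and 60.0 TPM in targeted liver when fasted, a 2.62-fold difference (2.34 to 2.94), and 6.07 against 4.96 TPM when refed. Cyp3a25 had 351 against 1215 TPM when fasted and 141 against 366 TPM when refed. Cyp3a11, a drug-metabolising P450, was 4.37-fold higher in the fasted and 3.02-fold higher in the refed targeted library. Cyp2b10 was near the floor. When fasted it had 0.57 TPM from 11 reads in control and 4.51 TPM from 77 reads in targeted liver (ratio interval 4.18 to 16.5). When refed it had 0 TPM in control and 0.19 TPM in targeted liver. The Cyp3a and Cyp2b genes have similar copies that can share reads, so single values are uncertain. Cyp3a11 and Cyp3a25 are the 2 of these genes listed in the refed table, where 75% of genes were at least 2-fold higher.

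Of 12 genes of haem synthesis and breakdown, Alas1 is listed, in the refed table. Alas1 encodes the enzyme of the first and rate-limiting step of haem synthesis in liver. It stood at 355.6 TPM in the control fasted, 43.9 TPM in the control refed, 402 TPM in the targeted fasted and 17.1 TPM in the targeted refed library. Both refed libraries were far below both fasted ones. Between the refed libraries Alas1 was 2.58-fold lower in the targeted one (2.33 to 2.85), and between the fasted ones the TPM ratio was 1.13 and the FPKM ratio 0.98.

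In the authors' gene ontology terms for biological processes, given for 687 of the listed genes, 3 genes carry the term for the electron transport chain. They are Cyb5a, Cyb5b and Aox1, an aldehyde oxidase, which is named after its values were seen. Aox1 had 10.6 TPM in control against 36.6 TPM in targeted liver when fasted and 15.1 against 32.5 TPM when refed, higher in the targeted library in each state where both cytochromes b5 were lower.

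The genes next to the targeted ones were also looked up, taking the order of genes in RefSeq on GRCm38.p6. None of the 20 nearest genes around Cyb5a, 9 of them protein-coding, is in either table. Of the 20 around Cyb5b, 10 of them protein-coding, 1 is listed, a count too small to set against the 4.25% of protein-coding genes listed. It is Nqo1, a quinone reductase, the fifth gene downstream. When fasted, Nqo1 had 2.92 TPM from 45 reads in control and 7.14 TPM from 97 reads in targeted liver. When refed, it had 2.47 TPM from 41 reads and 5.49 TPM from 91 reads. It was higher in the targeted library in each state, by 2.45-fold (1.70 to 3.56) and 2.22-fold (1.52 to 3.30).

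The listed genes whose levels ran most like those of the cytochromes b5 were taken by the distance between log2 TPM profiles over the 4 libraries, each centred on its own mean, among 609 genes with at least 1 TPM in every library. For Cyb5a the nearest was Gatad1, a nuclear zinc finger gene, at a distance of 0.62. Gatad1 had 23.8 TPM and 13.5 TPM in the fasted and refed control and 3.96 TPM and 2.66 TPM in the fasted and refed targeted library. Scara5, a receptor for ferritin, followed with 13.6, 12.2, 3.97 and 3 TPM in that order. Serpine2, a protease inhibitor, Sdhaf3, an assembly factor of succinate dehydrogenase, and Dusp1, a phosphatase of MAP kinases, followed at 1.75, 1.86 and 1.90. Cyb5b was seventh, at a distance of 1.99.

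For Cyb5b the nearest was Sdhaf3, at a distance of 0.74, with 14.4, 19.5, 5.96 and 7.90 TPM in the same order, resting on 30 to 114 reads. Cyp7b1, an oxysterol hydroxylase, followed at 0.77 with 112, 184, 46.1 and 110.3 TPM. The complement gene C4a, which has a near-identical copy and is uncertain, stood at 0.89, the fatty acid elongase Elovl6 at 0.90 and the dynein light chain gene Dynll1 at 0.97. Elovl6 had 30.1 TPM in the control fasted, 167 TPM in the control refed, 13.8 TPM in the targeted fasted and 26.6 TPM in the targeted refed library. All of these nearest genes, like Cyb5b, were highest in the control refed and lowest in the targeted fasted library. Cyb5a came 141st in the order from Cyb5b. With 4 points per gene and genes that were listed for their genotype ratios, these distances describe likeness in these libraries and no more.

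**Figure D5:**
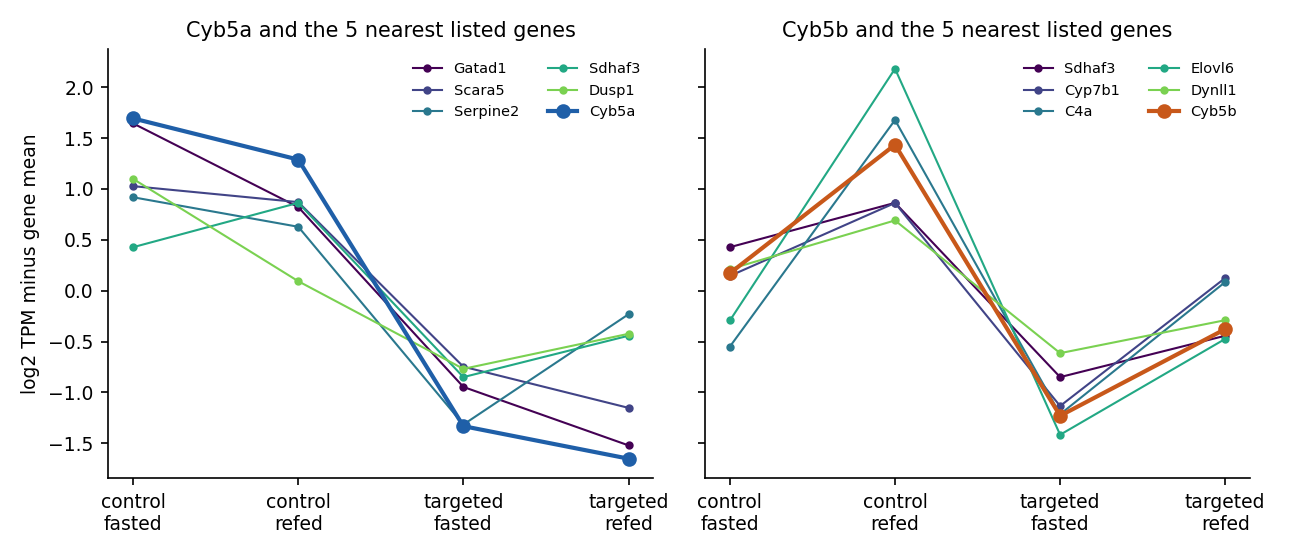
Log2 TPM minus the mean of the gene in each library, for Cyb5a with its 5 nearest listed genes (left) and for Cyb5b with its 5 nearest (right). The lines join the libraries of 1 gene for reading and have no order of time, and Gatad1 follows Cyb5a most closely at a distance of 0.62.

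Markers of other liver cell types were looked up among the listed genes. Of 56 markers of endothelium, macrophages, lymphocytes, neutrophils, stellate cells and matrix, bile duct and red blood cells, 22 are listed. Of these, 21 are in the fasted table. For comparison, 4.25% of protein-coding RefSeq genes are listed, whether or not liver expresses them. Listing needs a difference past the authors' threshold, so that these markers differ was set by the choice. The markers not listed were not analysed here. None of the 22 is at 0 in any library. Their summed level was 561 TPM in the control fasted, 251 TPM in the control refed, 267 TPM in the targeted fasted and 359 TPM in the targeted refed library. In the same order, the 3 listed red blood cell markers made up 312, 158, 161 and 217 TPM of it. The sums ran from 51.7 to 162 TPM for the 9 listed endothelial markers, from 8.39 to 37.0 TPM for 2 of macrophages, from 8.52 to 27.4 TPM for 5 of lymphocytes, from 5.14 to 15.3 TPM for 1 of neutrophils and from 158 to 312 TPM for 3 of red blood cells, each highest in the control fasted library. The 2 listed stellate and matrix markers summed to 3.82 to 14.7 TPM and were highest in the targeted refed library. None of the 5 bile duct markers is listed. The summed level of the listed markers was lower in the targeted library when fasted and higher when refed. The part of cell makeup in the levels of the cytochromes b5 was not tested. Of 11 hepatocyte markers only Serpina1e, from a family of near-identical copies, is listed, at 3358, 10275, 501 and 7226 TPM in the control fasted, control refed, targeted fasted and targeted refed library, and the other 10 were not analysed here.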

How the data were processed

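Per the labels' protocols, RNA was isolated from liver with TRIzol. The sources used here do not name a library kit, strandedness, aligner, annotation or build. Per the file headers, the authors deposited TPM and FPKM for each of the 4 libraries, a log2 ratio of targeted over control and a p-value for it, and in the fasted table the log2 ratio and p-value of refed over fasted control. The tables hold genes past a threshold, and a gene in neither was not analysed here.

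The authors' deposited p-values compare the reads of 2 libraries and are not used as tests. They match 2 times the tail probability of Audic and Claverie, which with the log2 ratio gives whole reads, within a relative tolerance of 0.001 on the p-value. Leaving out p-values too small to be stored, this gave reads for 579 of 697 genes in the fasted, 561 of 676 in the control refeeding and 202 of 263 in the refed comparison. For Cyb5a the p-value of the control refeeding comparison and for Cyb5b that of the fasted comparison fixed the reads, and the other libraries followed from the deposited log2 ratios as whole numbers. On simulated reads the step recovered 491 of 491 fasted and 174 of 174 refed genes, with log2 ratios of whole reads only. The simulated p-values came from the same formula, so this checks the calculation and not how well the formula matches the deposited values. Why some genes of the deposited data gave no reads was not tested. Intervals are Clopper-Pearson intervals of read ratios moved to TPM or FPKM. Those of sums, of differences of log2 ratios and of the balance of the 2 genes use Poisson errors on a log scale. All cover counting error only.

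Each comparison has 1 library on each side and was not tested. A fit of genotype and feeding as added effects over all 4 libraries would leave 1 residual degree of freedom and was not run. The genes named are both members, the 5 nearest profiles to each, listed genes of the partner lists, and listed genes among 10 neighbours on each side. Members and lists were chosen with earlier results of these data known. Depth was estimated from genes with 1 GENCODE M21 transcript of at least 2000 bases and is approximate, since the authors' lengths are not given. Alternatives were FPKM, a pseudocount of 1 TPM, the authors' log2 ratio, size factors over 609 listed genes and no filter. Added after seeing the data were recovered reads over library totals, division by GENCODE lengths, and the difference between feeding states on other scales. Python 3.11.15, numpy 2.4.6, pandas 2.3.3, scipy 1.17.1 and matplotlib 3.10.9 were used.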

Additional observations from a re-analysis of the deposited data

Results flagged for a closer look

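Among the genes named in the report, 5 differed in direction between groups by TPM, with 1 library per group and no test of the difference. Serpine2 was lower in the refed than in the fasted control library and higher in the refed targeted one, a difference of 1.37 between the log2 ratios. Dusp1 did likewise, with a difference of 1.35. Cyp17a1 was higher in the targeted fasted and lower in the targeted refed library than in their controls, a difference of -1.68. For Alas1 the same difference was -1.54, but by FPKM its ratio was below 1 in both states. Aox1 was higher on refeeding in control and lower in targeted liver, a difference of -0.68, and by FPKM it was higher in both.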

How the results depend on the processing

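Of 95 values recomputed under an alternative, 55 stayed within the counting interval or, for counts, within 1.5 times, and 40 moved. Of the 40, 2 changed sign, both for Cyb5a with size factors. The refed over fasted sums of both genes were not among the 95, and their direction also turned with the scale. In control liver the refed sum was 82.3% of the fasted one by TPM and 140.3% with size factors. In targeted liver it was 91.9% by TPM and 110.5% by FPKM. Both members stayed lower in the targeted library in each state under every alternative run. No paired analysis was possible because each group has 1 library. A fit with the feeding state as a block, which would leave 1 residual degree of freedom, was not run.

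By FPKM the log2 ratio of targeted over control in the fasted state was -3.23 for Cyb5a and -1.61 for Cyb5b, that of refed over fasted was -0.32 and 1.35 in control and -0.053 and 1.118 in targeted liver, the difference between states was 0.26 and -0.23, and the summed transcript left when fasted was 11.6%. In the authors' deposited table the values that moved were -3.20 and -1.59 for the fasted ratios and -0.31 and 1.37 for control refeeding. Recovered reads over library totals gave -3.23 and -1.61 for the fasted ratios, -0.33 and 1.35 for control refeeding and -0.057 and 1.118 for targeted refeeding.

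Size factors rest on genes listed for their differences. They gave -2.48 and -0.86 for the fasted ratios of Cyb5a and Cyb5b, -3.41 and -2.28 for the refed ratios, 0.36 (changed sign) and 2.03 for control refeeding, -0.56 and 0.61 for targeted refeeding, -0.93 (changed sign) and -1.42 for the difference between states, and 19.4% and 10.8% of summed transcript left when fasted and refed. GENCODE lengths moved the Cyb5b share to 5.75%, 16.4%, 15.8% and 29.7%.

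With a pseudocount of 1 TPM, 128 in place of 296 listed genes were at least 2-fold lower in the targeted fasted library, 81 in place of 189 were higher in the targeted refed one, and 238 in place of 376 were lower on control refeeding. Without the filter, 2 of the 5 genes nearest to Cyb5a and 3 of the 5 nearest to Cyb5b were the same genes. The cause of these moves was not tested. The intervals cover counting error, and the spread between mice cannot be measured here.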
